A study of Mus musculus with 8 samples.

Results

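Primary mouse hepatocytes were set against lineage-negative bone marrow cells (Lin- BM cells), the mature liver cell against a marrow fraction that holds the blood progenitors. The samples were taken by their titles, 2 arrays of primary hepatocytes (replicates 2 and 4) and 2 of Lin- BM cells (replicates 3 and 4), 4 of the 8 arrays in the series. The remaining 4 arrays hold hepatocytes derived from transplanted bone marrow after 1 or 5 months and entered only the estimate of the spread between arrays. The labels name Lin- BM cells as the negative and primary hepatocytes as the positive control for those cells.

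Per the methods, Lin- BM cells came from female eGFP-expressing C57Bl6/J-Tg(UBCGFP)30Scha/J mice 6 to 8 weeks old, a line in which the ubiquitin C promoter drives the transgene. Magnetic beads removed cells that carried Ter119, Ly-6G/C, 7-4, CD11b, CD5 or B-cell antigens, so the fraction is what these antibodies left and is not a single cell type. The paper describes CD45-positive (hematopoietic) and CD45-negative (mesenchymal) cells within it, so a gene higher in it need not be one of blood progenitors. Hepatocytes were released by collagenase perfusion of the liver and enriched by centrifugation at low speed, without a sort by marker. The strain, sex, age and treatment of the mice that gave the primary hepatocytes were not given in the sources used here. Each experiment pooled the cells of 3 mice, so 1 array stands for a pool, and p-values measure the spread between such pools.

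Hepatocytes make most proteins of the blood plasma, turn ammonia into urea, synthesise bile acids, store and release glucose, and modify drugs and steroids through cytochrome P450 and conjugating enzymes. Their identity is held by a set of liver-enriched transcription factors that includes the HNF1, HNF4, FOXA and C/EBP families and several nuclear receptors. Lin- BM cells hold the stem and progenitor cells of all blood lineages. They divide often and depend on factors such as GATA2, RUNX1, LYL1 and GFI1B.

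Levels are given as log2 signal minus the 75th percentile of the same array, taken over the 13991 probes whose sequence is the same on both array designs. A level of 0 is therefore the 75th percentile of an array, and a difference is hepatocytes minus Lin- BM cells. The brightest shared probe stood for each gene, and a gene was tested if both replicates of either group had that probe well above background, which left 9062 of 13227 genes. It was called where limma gave an adjusted p below 0.05 and the difference passed 0.6 on the log2 scale. Where a gene was not well above background on either array of the dimmer group, only a bound is given ("at least N-fold"), since the dim group then has no measured level. The exact permutation test of 2 arrays against 2 cannot go below p = 0.33, so single genes rest on limma alone. Genes that passed the filter through 1 group alone had to differ, and counts over them describe these arrays. A p-value printed beside a bound comes from the fit to all readings, background included, and not from the bound. Such p-values add no evidence beyond the filter.

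The groups were on different slides, array designs and scans, so group and slide cannot be told apart, and this holds for every difference below. Well above background were 58.6 and 56.9% of spots in Lin- BM cells, and 51.9% and 50% in hepatocytes. Replicates differed by a median of 0.37 in hepatocytes and 0.42 in Lin- BM cells, against a median absolute difference of 1.57 between the groups. Of 10 spike-in controls of the manufacturer, 8 were well above background on all 4 arrays, and their differences ran from -0.33 to 1.19 with a median of 0.15. The bright controls E1A_r60_1 (1.11) and E1A_r60_n9 (1.19) passed the call limit of 0.6. The remaining controls ran from -0.33 to 0.28, among them the bright E1A_r60_n11 (-0.08). Whether bright genes with small differences carry such an offset was not tested. The median difference over all genes was -0.31, other scalings gave -0.32 to -0.04, and another background correction gave 0.06.

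Probes of sex-linked genes gave signals of both sexes in Lin- BM cells. Xist, the RNA of the inactive X chromosome, read -2.78 and -3.92 in the Lin- samples and was not well above background in either hepatocyte sample. The Y-linked Ddx3y was well above background on all 4 arrays, at 0.92 and 1.24 in hepatocytes and 0.81 and -0.08 in Lin- BM cells. On probes of their own design the Lin- samples also had signal from the Y-linked Eif2s3y, at 1.7 and 1.4, and from Kdm5d, at -1.87 and -2.41. In hepatocytes Eif2s3y read 2.42 and 2.21, Kdm5d was not well above background, and Uty, also Y-linked, was called higher than in Lin- BM cells (1.01). That call of Uty was lost with another background correction (0.5). Uty probes found on 1 design alone were not well above background. The Lin- arrays thus carried both Xist and Y-linked signals although the methods name female donors, and whether these probes also bind the X-linked copies was not tested.

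Of the 9062 genes, 6198 were called (68.4%), 2688 higher in hepatocytes (29.7%) and 3510 lower (38.7%). The values of the 2 arrays of each group did not overlap for 7614 genes, or 84.0%. Differences beyond 16-fold were called for 805 genes higher and 842 genes lower. Well above background on all 4 arrays were 6838 genes, of which 1988 were called higher and 2275 lower. A further 566 genes were well above background in both hepatocyte samples and in neither Lin- sample, with a median bound of at least 25.9-fold. The reverse held for 1013 genes, with a median bound of at least 4.3-fold. These bounds rest on the floors of different arrays and were not compared. In bulk RNA, fewer cells of a kind and less RNA per cell cannot be told apart.

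**Figure D1:**
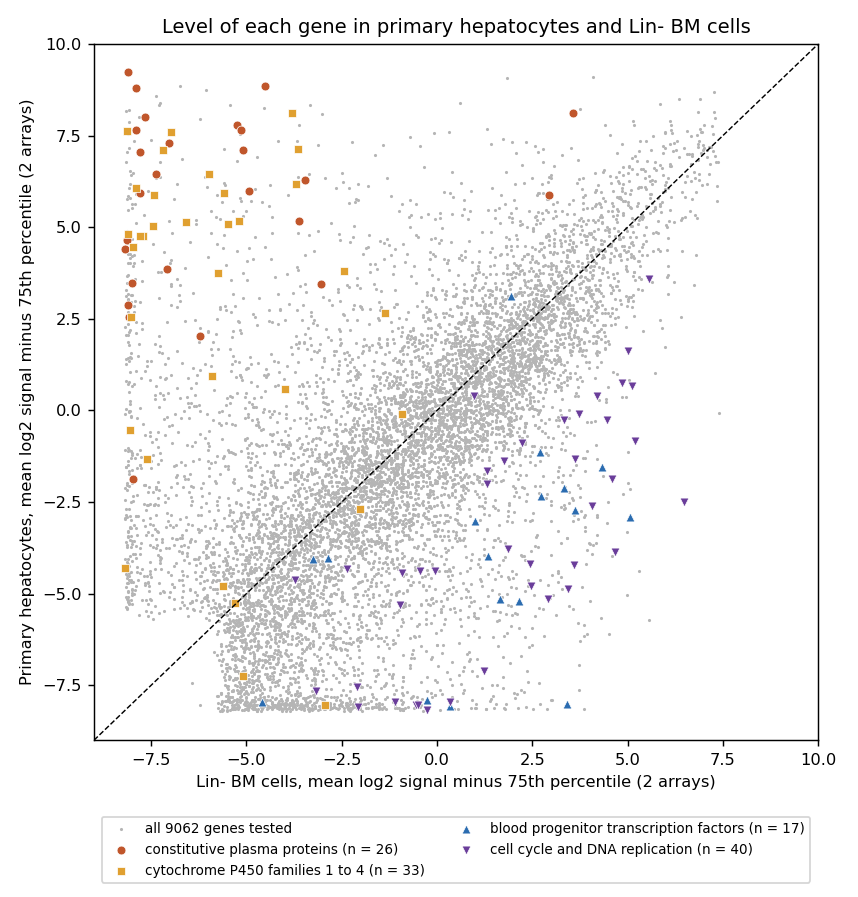
Mean level of each of the 9062 genes tested in Lin- BM cells (horizontal) and primary hepatocytes (vertical), both as log2 signal minus the 75th percentile, 2 arrays each, with 4 gene lists marked and the line of equal levels dashed. Plasma proteins and most cytochromes P450 lie far above the line and the cell cycle and progenitor factor genes mostly below it, and the pile at about -8 on either axis holds probes at background.

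Genes of proteins that hepatocytes secrete into plasma were among those with the largest differences. Of 46 constitutive plasma proteins listed, 26 had a shared probe, and all 26 were tested and called higher, where 29.7% of all genes were called higher. With genes below background in Lin- BM cells at their bound, differences ran from 2.95 to at least 15.89 with a median of 11.17 (12.38 as fitted), against a median of -0.31 over all genes. In 16 of the 26, signal was well above background in hepatocytes alone.

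Alb encodes serum albumin, the most abundant plasma protein. It read 9.1 and 9.39 in hepatocytes and -8.05 and -8.16 in Lin- BM cells, where it was not above background. Alb was at least 60850-fold higher in hepatocytes (limma adjusted p = 9.64e-08), the largest bound of all genes. Ambp, the precursor of alpha-1-microglobulin and bikunin, read 8.7 and 8.89 against background readings of -8.06 and -7.77, at least 44659-fold higher. Gc, the vitamin D binding protein, read 7.67 and 7.61 against -8.08 and -7.71, at least 20032-fold higher. Hepatocyte samples lay within 0.3 of each other for these genes and the groups were far apart.

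The start regions of these genes were read from RefSeq promoter sequences (GRCm38.p6). The letters GTTAAT, part of the site bound by the liver factor HNF1, were searched on both strands in the 250 bases before each start. They occurred before 9 of the 20 listed plasma protein genes with a sequence (10 of 24 windows, some of which overlap). The share was 6.43% over all 32851 windows, 10.2% for genes called higher by over 4 and 4.21% for those called lower by over 4. Letters of the HNF4 site (CAAAGTCCA) stood in 0 of the 24 windows, against 0.384% of all. Those of the C/EBP site (TTGCNNAA, with N any base) stood in 9, against 9.56% of all. TATAAA, the TATA box, stood in 6 of the 24 windows against 12.4% of all. The 150 bases before the start of 4 of the genes follow, shown because they carry the HNF1 letters, with GTTAAT (or ATTAAC, its other strand) and TATAAA in capitals. The Alb stretch is chr5:90460720-90460869 (plus strand), Gc chr5:89457899-89458048 (minus), Afm chr5:90518799-90518948 (plus) and Cpn1 chr19:43986521-43986670 (minus), each printed 5′ to 3′ along the gene.
Alb: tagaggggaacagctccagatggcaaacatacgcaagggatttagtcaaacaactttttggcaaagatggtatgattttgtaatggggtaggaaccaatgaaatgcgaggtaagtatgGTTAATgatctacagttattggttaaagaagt
Gc: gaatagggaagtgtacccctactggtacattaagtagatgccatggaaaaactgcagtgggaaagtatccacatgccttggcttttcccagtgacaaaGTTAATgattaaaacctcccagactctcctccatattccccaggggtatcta
Afm: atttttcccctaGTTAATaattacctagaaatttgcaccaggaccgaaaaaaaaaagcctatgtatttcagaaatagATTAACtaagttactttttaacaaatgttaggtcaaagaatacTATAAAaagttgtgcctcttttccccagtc
Cpn1: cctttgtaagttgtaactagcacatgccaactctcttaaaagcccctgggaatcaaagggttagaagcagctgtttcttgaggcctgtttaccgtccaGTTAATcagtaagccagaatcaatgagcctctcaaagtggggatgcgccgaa
A match is a description of these letters and not a measured binding site. Alb, Gc, Afm (afamin) and Cpn1 (a carboxypeptidase N subunit) were each called higher in hepatocytes. CpG dinucleotides were sparse before the plasma protein genes, with a median observed-over-expected ratio of 0.158 against 0.373 over all windows. Median GC content was also lower, at 48.4% against 52.4% over all windows. The part of base content in the motif counts was not tested.

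Acute phase proteins, which the liver secretes in larger amounts during inflammation, were also high in hepatocytes. Of 16 measured, 14 were called higher and 0 lower (median 10.19, or 9.42 with bounds). The fibrinogen chain Fgb read 8.91 and 8.77 against -7.27 and -6.2, at least 41036-fold higher (limma adjusted p = 2.51e-07). Saa1, serum amyloid A, differed between the hepatocyte samples, at 3.56 and 5.37, and read -1.78 and -1.81 in Lin- BM cells. Orm1, orosomucoid, was likewise lower in replicate 2 (2.57) than in replicate 4 (3.73). Hepcidin, Hamp, read 5.49 and 6.46 and was at least 6320-fold higher. The metallothionein Mt2 spanned 2.14 to 7.85 in hepatocytes and 3.07 to 5.82 in Lin- BM cells and was not called (limma adjusted p = 0.803).

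Complement and coagulation genes moved in both directions. Of 42 measured genes 35 were called higher and 6 lower. The complement component C3 read 8.97 and 9.15 against 2.53 and 1.13, and was thus well above background in both cell types. The mannose-binding lectin Mbl2 was at least 19107-fold higher in hepatocytes. F9, coagulation factor IX, read 2.04 and 2.34 against -2.23 and -2.32. F8, factor VIII, read -3.54 and -3.86 against -6.88 and -5.19. It was called higher in hepatocytes (difference 2.34 ± 0.52 SE, limma adjusted p = 0.00627). F8 was dim, and in Lin- BM cells it was well above background on 1 array alone. The test of the methods did not call it, without or with adjustment. Which cells of the hepatocyte preparations carried F8 was not tested.

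The members called lower were F13a1, Vwf, Cfd, Thbd, Cfp and Procr. F13a1, the A chain of factor XIII that platelets and macrophages carry, read 2.96 and 2.83 in Lin- BM cells and was at background in hepatocytes, at least 467-fold lower (limma adjusted p = 7.74e-05). Vwf, von Willebrand factor of platelets and endothelium, read 0.29 and 2.0 against -5.96 and -3.37. Leaving out any array but hepatocyte replicate 4 ended the call of Cfp, properdin, which read 2.37 and 2.5 in Lin- BM cells and -0.63 and 1.06 in hepatocytes.

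Lipoprotein genes followed the plasma proteins, with 19 of 21 called higher and 1 lower. Apoa1, the main protein of high-density lipoprotein, read 7.35 in both hepatocyte samples against -8.09 and -7.79, at least 16399-fold higher (limma adjusted p = 9.64e-08). Apob, the scaffold of very-low-density lipoprotein, was at least 10107-fold higher. Sort1, sortilin, was called lower by its brightest probe (-1.61), and its probes disagreed in sign (-0.02 as their mean).

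Amino acid catabolism and the urea cycle formed the next block. All 15 urea cycle and ammonia genes tested were called higher (median 7.56), as were 34 of 38 enzymes of amino acid breakdown and folate metabolism (median 9.95, or 9.72 with bounds). Otc, ornithine transcarbamylase, read 5.64 and 5.62 in hepatocytes and was at background in Lin- BM cells, at least 4984-fold higher. Arg1, arginase, read 5.07 and 5.38 against -6.04 and -5.34.

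Of the amino acid list, those called lower were Mthfd2 and Gatm. Mthfd2, a mitochondrial folate enzyme of dividing cells, read -1.29 and -0.28 in Lin- BM cells and -4.63 and -5.19 in hepatocytes (difference -4.12 ± 0.45 SE, limma adjusted p = 0.000246). Gatm, glycine amidinotransferase, differed by -2.52, and its call was lost without hepatocyte replicate 4 (adjusted p = 0.0527).

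Glucose metabolism showed the same shift with a wider range. Of 22 genes 19 were called higher and 2 lower, with a median of 4.98. G6pc, the catalytic subunit of glucose-6-phosphatase that lets the liver release glucose, read 6.56 and 5.74 against -4.17 and -4.59 (limma adjusted p = 1.09e-06). Igfbp1, an insulin-repressed binding protein of insulin-like growth factors, was at least 14347-fold higher. Gyg, glycogenin, the primer of glycogen, read 4.22 and 4.15 in Lin- BM cells and 1.33 and 1.89 in hepatocytes and was called lower (-2.58).

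Bile acid synthesis and transport genes were called higher in all 20 cases tested (median 8.99, or 8.36 with bounds). Cyp7a1, the rate-limiting enzyme of bile acid synthesis, read -0.02 and 1.77 in hepatocytes and was at least 184-fold higher (limma adjusted p = 2.63e-05). The bile acid importer Slco1b2 read 7.47 and 8.27 and was at least 23472-fold higher. Cyp7a1 and Slco1b2 were at background in both Lin- samples, so the filter fixed the order of the groups for them. This held for 9 of the 20 genes, and over all genes tested the groups did not overlap for 84.0%.

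Of 33 cytochromes P450 of families 1 to 4 tested, 27 were called higher, 2 lower and 4 not called (median 10.58, or 10.36 with bounds), and 17 were seen in hepatocytes alone. Cyp2c29 read 7.21 and 7.02 in hepatocytes and was at background in Lin- BM cells, at -7.3 and -7.07. Cyp3a11, a main drug-metabolising form, read 5.49 and 4.8 and was at least 3270-fold higher (limma adjusted p = 1.45e-06). Probes of the Cyp2c and Cyp3a subfamilies can bind close relatives, so single members are uncertain.

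The exceptions were Cyp1b1 and Cyp2b13. Cyp1b1, a form of extrahepatic tissues, read -3.31 and -2.57 in Lin- BM cells and was at background in hepatocytes, at least 8.19-fold lower. Cyp2b13, a form found in female liver, was at background in hepatocytes, and its call of lower rested on dim signals of -4.45 and -5.75 and turned to 0.07 with another background correction.

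Conjugating enzymes gave 30 higher and 2 lower of 34. Gsta3, a glutathione transferase, read 8.17 and 8.32 against -3.68 and -5.41. Mgst2, a microsomal glutathione transferase that also makes leukotriene C4, went the other way, at 3.88 and 1.75 in Lin- BM cells and at background in hepatocytes, at least 443-fold lower (limma adjusted p = 9.58e-05).

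Fatty acid oxidation was called higher in 37 of 37 genes, with a median of 3.74, smaller than for secreted proteins. Acadm, medium-chain acyl-CoA dehydrogenase, read 5.97 and 5.87 against 3.2 and 2.7. Of these 37 genes, 29 were well above background on all 4 arrays, so most of this list was measured in both cell types. Cholesterol and fatty acid synthesis gave 23 of 25 higher and 0 lower (median 3.85). Sc5d, sterol C5-desaturase, read 6.17 and 5.29 against 0.87 and 0.55 (difference 5.02 ± 0.33 SE, limma adjusted p = 2.68e-05). Lipid synthesis genes varied between the hepatocyte samples, and Fasn, fatty acid synthase, read 1.49 in replicate 2 and -0.72 in replicate 4.

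**Figure D2:**
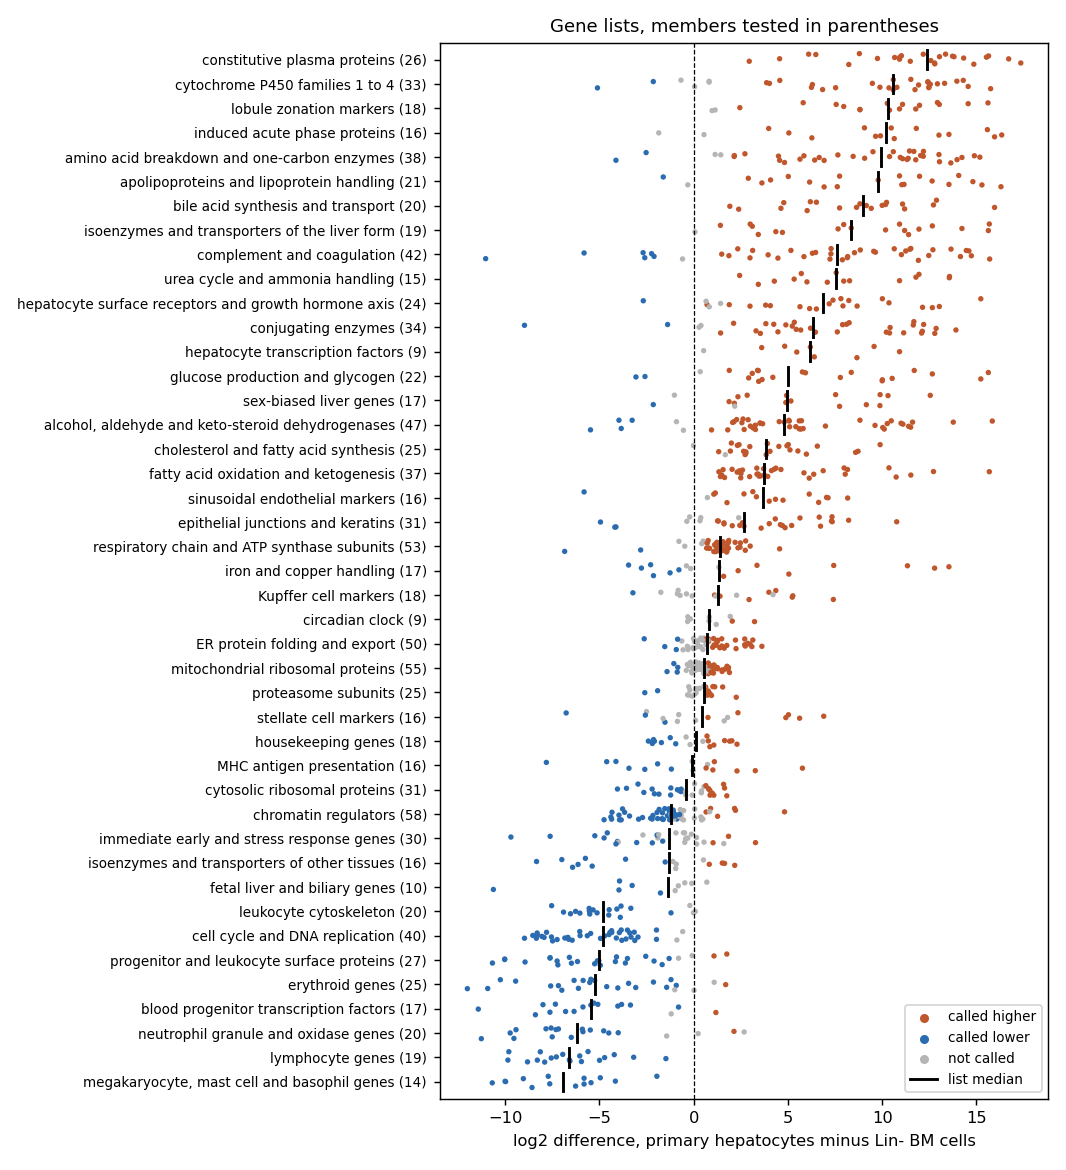
Log2 difference, primary hepatocytes minus Lin- BM cells, of each tested member of the gene lists with at least 9 members tested, with called genes coloured by direction and the list median as a black bar. Lists of liver function lie to the right, blood and cell cycle lists to the left, and lists of general cell machinery near 0.

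Where a liver enzyme or transporter has relatives used by other tissues, the forms were compared side by side. Of 19 liver forms, 18 were called higher and 0 lower (median 8.36). Of 16 forms of other tissues, 4 were called higher and 8 lower (median -1.3), with 2 called higher without hepatocyte replicate 4 or without Lin- replicate 4 and 1 under quantile normalization. Slc2a2, the GLUT2 glucose transporter of liver, read 4.44 and 4.9 in hepatocytes and was at least 2553-fold higher, whereas Slc2a3, GLUT3, read 0.91 and 0.51 in Lin- BM cells, at least 103-fold lower in hepatocytes. Slc2a1, GLUT1, read 1.46 and 1.84 against 1.77 and 0.51 and was not called (difference 0.52 ± 0.43 SE).

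Methionine adenosyltransferase changed form in the same way. Mat1a, the liver form, was at least 7283-fold higher in hepatocytes, and Mat2a, the form of other tissues, read 4.03 and 4.67 against 5.53 and 6.18 and was called lower (-1.51, limma adjusted p = 0.0052). Among carbonic anhydrases, Car5a of mitochondria was at least 1621-fold higher, and Car2 of red cells was lower by a difference of -6.99. The hexokinases Hk2 and Hk3 were called lower (-6.42 and -5.38). The array annotation places the probe named Hk1 on chromosome 5 and RefSeq the gene on chromosome 10, so its value is not given, although the list counts include it. The platelet phosphofructokinase Pfkp was called lower (-3.61), while the liver form Pfkl differed by 0.07 and was not called.

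**Figure D3:**
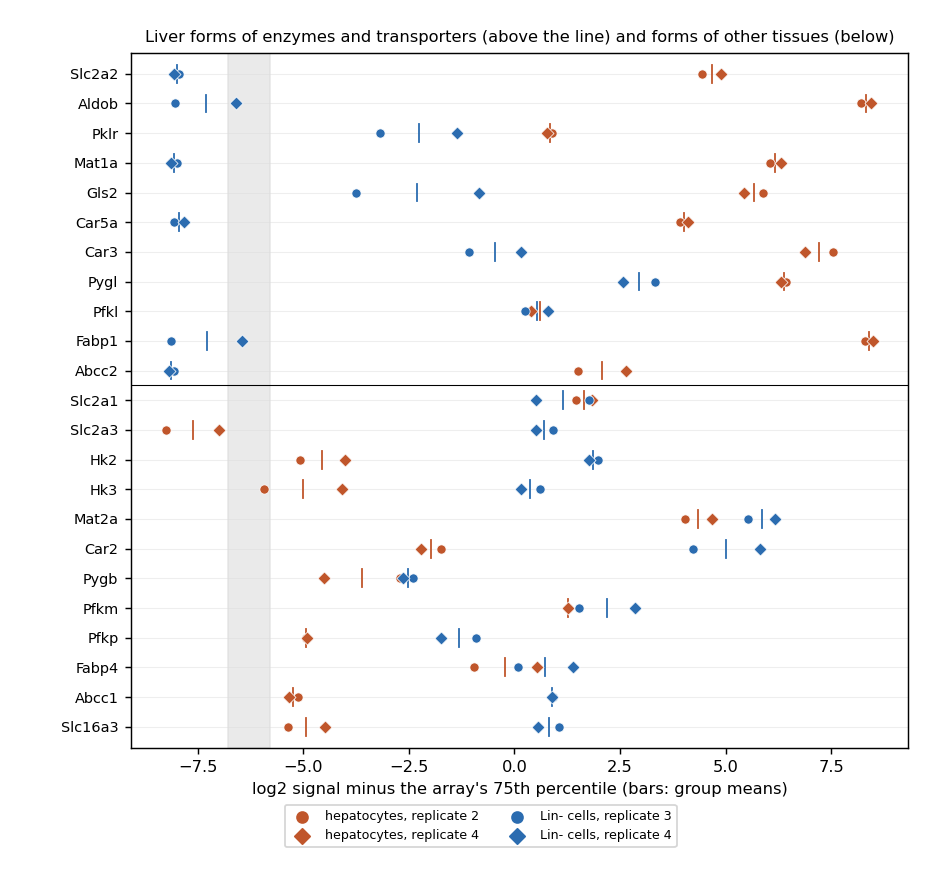
Level on each of the 4 arrays of liver forms of enzymes and transporters (above the line) and of relatives typical of other tissues (below), as log2 signal minus the 75th percentile, with short bars for group means and a grey band for the range of the lowest signals above background. Liver forms except Pfkl separate with hepatocytes high, and Slc2a3, Hk2, Hk3, Mat2a, Car2, Pfkm, Pfkp, Abcc1 and Slc16a3 separate the other way.

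The transcription factors that hold each identity followed the 2 cell types. Of 27 hepatocyte factors listed, 9 had a shared probe, and 8 of these were called higher and 0 lower (median 6.19). Hnf4a had no shared probe and is not described here. Nr1i2, the pregnane X receptor that senses drugs, read 2.41 and 3.57 in hepatocytes and was at least 796-fold higher (limma adjusted p = 3.53e-06). Nr5a2, a nuclear receptor of bile acid genes, read 4.33 and 4.35 against -5.28 and -5.2. Foxa3, a forkhead factor that opens liver chromatin, was at least 160-fold higher.

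Some hepatocyte factors were also well above background in Lin- BM cells. Cebpa, which serves both liver and myeloid cells, read 2.4 and 2.41 against -0.87 and -1.55 (difference 3.61 ± 0.3 SE). Hhex, a homeobox factor of liver and blood development, read 3.59 and 2.94 against 2.88 and 2.59 and was not called (limma adjusted p = 0.147).

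Of 17 blood progenitor factors tested, 15 were called lower in hepatocytes and 1 higher (median -5.45), where 38.7% of all genes were called lower. Gfi1b, a repressor needed for red cells and platelets, read 2.73 and 4.11 in Lin- BM cells, at least 675-fold lower in hepatocytes (limma adjusted p = 1.99e-05). Lyl1 read 5.06 and 5.08 against -3.05 and -2.78. Gata2 read 2.46 and 1.81 against -4.67 and -5.71, and Runx1 was at least 52.2-fold lower. Spi1, which encodes PU.1, was dim, at -3.8 and -5.39 in Lin- BM cells, and its call was lost without hepatocyte replicate 2, hepatocyte replicate 4 or Lin- replicate 3 (adjusted p of 0.121, 0.0696 and 0.162). Cebpe, a granulocyte factor, was called higher in hepatocytes, at 3.24 and 2.99 against 2.41 and 1.46, and that call was lost without either hepatocyte sample or without Lin- replicate 4.

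**Figure D4:**
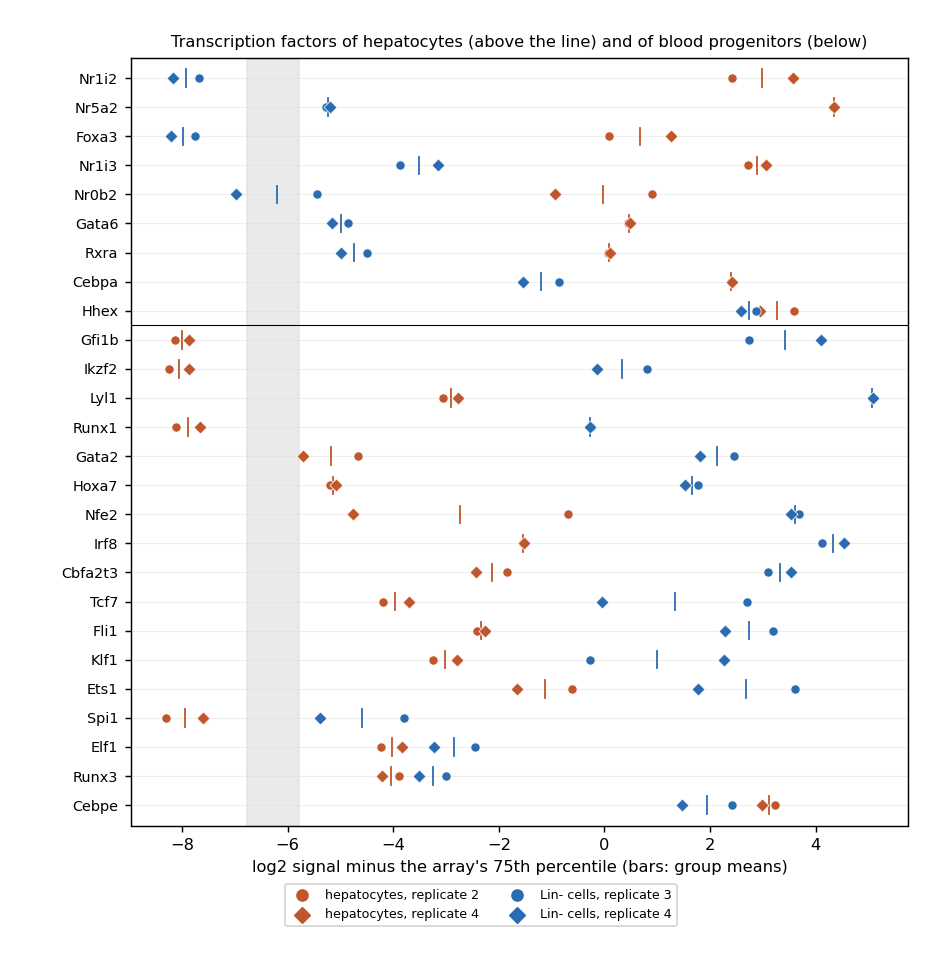
Level on each of the 4 arrays of transcription factors of hepatocytes (above the line) and of blood progenitors (below), as log2 signal minus the 75th percentile, with short bars for group means and a grey band for the range of the lowest signals above background. Hepatocyte factors except Hhex lie at least 3.61 apart between the group means, and Gfi1b, Ikzf2 and Runx1 are at background in hepatocytes.

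Receptors on the cell surface divided in the same manner. Of 24 hepatocyte receptors and growth hormone axis genes, 20 were called higher and 1 lower (median 6.85). Asgr2, a subunit of the asialoglycoprotein receptor, read 7.18 and 7.28 against -3.25 and -3.02. The growth hormone receptor Ghr read 5.72 and 5.74 against -2.33 and -1.83. The glucagon receptor Gcgr differed by 10.01 (± 0.23 SE, limma adjusted p = 2.48e-07).

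Of 27 progenitor and leukocyte surface proteins, 23 were called lower in hepatocytes and 2 higher (median -5.03, or -4.38 with bounds). Cd34, a marker of progenitors and also of endothelium, read 5.33 and 4.79 in Lin- BM cells and -1.37 and -2.91 in hepatocytes. Spn, CD43, read 5.01 and 4.96 against -5.53 and -4.55, the largest difference in that direction (-10.02) where all 4 arrays had measured signal. The chemokine receptor Cxcr4 was at least 172-fold lower. The 2 called higher, Fcgr3 and Tnfrsf1a, differed by 1.76 and 1.08, and neither stayed called without hepatocyte replicate 2 or without Lin- replicate 4.

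The Lin- fraction carried genes of several blood lineages. All 14 megakaryocyte, mast cell and basophil genes were called lower in hepatocytes (median -6.94, or -6.24 with bounds). Pf4, platelet factor 4, read 3.94 and 5.25 against -4.67 and -3.28. Mcpt8, a basophil protease, read 2.55 and 2.83 and was at least 405-fold lower in hepatocytes (limma adjusted p = 2.66e-07). Its relative Prss34, a protease of basophils and mast cells, was at least 910-fold lower.

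Erythroid genes were called lower in 21 of 25 cases and higher in 1, with a median of -5.25, or -3.52 with bounds. Ahsp, the chaperone of alpha-haemoglobin, read 2.7 and 5.01 in Lin- BM cells, at least 910-fold lower in hepatocytes. Alas2, the erythroid form of the rate-limiting enzyme of heme synthesis, went the other way, at 3.48 and 3.61 in hepatocytes and 1.91 and 1.79 in Lin- BM cells (difference 1.7 ± 0.3 SE, limma adjusted p = 0.0023). Car1, another red cell gene, read -0.02 and 0.05 in hepatocytes, while Epb42 and Rhag were at background there. The share of red cells in the hepatocyte preparations was not tested.

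Neutrophil genes gave 16 of 20 lower and 1, the general antioxidant enzyme Gpx1, higher (median -6.2, or -5.4 with bounds), and here the Lin- samples differed from each other. S100a8 read 4.9 in Lin- replicate 3 and 1.12 in replicate 4, against -4.79 and -4.19 in hepatocytes, and its call was lost without Lin- replicate 3 (adjusted p = 0.0845) or hepatocyte replicate 2 (adjusted p = 0.0564). Ltf, lactoferrin, read 3.23 and -1.11 and Mmp8, neutrophil collagenase, 1.47 and -2.79. Ctsg, cathepsin G of early granulocytes, varied less, at 5.87 and 5.22 (difference -11.26 ± 0.84 SE). Without Lin- replicate 3, 12 of the 20 genes were called lower.

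Lymphocyte genes were called lower in 19 of 19 cases (median -6.59, or -6.04 with bounds), and in 16 with another background correction. No value is given for Cd79a, since the array annotation places its probe on chromosome 12 and RefSeq the gene on chromosome 7. Rag1, the recombinase of developing lymphocytes, read -0.28 and -0.23 in Lin- BM cells, at least 52.7-fold lower in hepatocytes (limma adjusted p = 9.05e-07). The B-cell receptor gene Cd79b read 2.84 and 3.17, and Cd3d of the T-cell receptor 4.67 and 2.26. Cd5, an antigen of the depletion kit, was well above background in both Lin- samples, at 1.97 and -0.02.

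Genes of leukocyte movement were called lower in 17 of 20 cases and higher in 0 (median -4.81). Rac2, a small GTPase of blood cells, read 4.73 and 4.2 against -3.67 and -2.45. Was, the Wiskott-Aldrich syndrome protein, read 3.6 and 3.23 against -3.85 and -3.12. The general actin regulators Pfn1 and Cfl1 differed by 0.09 and -0.01 and were not called.

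Genes of cell division were lower in hepatocytes almost throughout. Of 40 cell cycle and replication genes tested, 38 were called lower in hepatocytes and 0 higher (median -4.83, or -4.39 with bounds). Mcm6, a subunit of the replicative helicase, read 6.37 and 6.57 in Lin- BM cells and -3.12 and -1.87 in hepatocytes (limma adjusted p = 6.6e-06). Mki67, the proliferation marker Ki-67, read 3.89 and 5.46 against -4.63 and -3.08. Pcna, the sliding clamp also used in repair, remained well above background in hepatocytes, at 1.66 and 1.6 against 4.87 and 5.17. Rpa1 and Ndc80 were the members not called.

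The starts of these genes were searched in the same way. CCAAT, the site of the factor NF-Y, stood on either strand in 68.6% of 35 windows of the list against 33.8% of all windows and 12 of the 24 plasma protein windows. TTTGGCGC, a form of the E2F site, stood in 3 of 35 windows against 0.417% of all. For windows of all genes called lower, the shares of CCAAT and TTTGGCGC were 34.7% and 0.838%. TATAAA was found in 0 of the 35 windows, against 12.4% of all and 8.86% for genes called lower. The median CpG observed-over-expected ratio was 0.801, against 0.373 over all windows and 0.681 for genes called lower. The 150 bases before Mcm6 (chr1:128359706-128359855, minus strand) and Mcm5 (chr8:75109359-75109508, plus strand, GRCm38.p6) follow because they hold both motifs, with TTTGGCGC (or GCGCCAAA) and CCAAT (or ATTGG) in capitals.
Mcm6: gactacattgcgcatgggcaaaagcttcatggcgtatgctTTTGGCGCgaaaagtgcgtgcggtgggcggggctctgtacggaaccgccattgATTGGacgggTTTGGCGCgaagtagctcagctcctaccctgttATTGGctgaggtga
Mcm5: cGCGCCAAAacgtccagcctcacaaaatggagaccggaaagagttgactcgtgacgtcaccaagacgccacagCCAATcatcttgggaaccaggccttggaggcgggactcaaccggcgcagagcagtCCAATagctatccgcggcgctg
Mcm5 read 3.12 and 4.06 in Lin- BM cells and -4.39 and -4.05 in hepatocytes, a difference of -7.8.

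Chromatin regulators leaned the same way with smaller differences. Of 58 tested, 37 were called lower in hepatocytes and 6 higher (median -1.22), against 38.7% and 29.7% of all genes. Ezh2, the histone H3 lysine 27 methyltransferase of Polycomb complex PRC2, read 2.23 and 3.15 in Lin- BM cells and -1.94 and -2.19 in hepatocytes (difference -4.75 ± 0.35 SE, limma adjusted p = 4.75e-05). Its partner Suz12 read 1.3 and 1.92 against 0.04 and -0.09, a difference of -1.63. Dnmt1, the maintenance DNA methyltransferase, differed by -4.33.

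The demethylase Kdm6a, which removes the mark that Ezh2 sets, read -3.11 and -2.89 in hepatocytes against -2.21 and -2.58 and was not called (limma adjusted p = 0.113). The acetyltransferase Ep300 was called lower (-1.24). Members called higher were led by Hdac11, a histone deacetylase, at -0.13 and -0.28 against -4.79 and -5.26, followed by Sirt2 (2.22) and Tet1 (2.17).

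Among genes that every cell uses, list medians were near 0. Housekeeping genes gave 8 higher and 7 lower of 18 (median 0.15), proteasome subunits 12 higher and 2 lower of 25 (median 0.54) and mitochondrial ribosomal proteins 21 higher and 4 lower of 55 (median 0.57), where 29.7% of all genes were called higher and 38.7% lower. Under quantile normalization housekeeping genes gave 4 higher and 8 lower (median -0.31), proteasome subunits 5 and 8 (median 0.03) and mitochondrial ribosomal proteins 18 and 8 (median 0.12), so none of these lists has a settled direction. Without hepatocyte replicate 2, 4 proteasome subunits were called higher, 7 without hepatocyte replicate 4 and 5 without Lin- replicate 3. Housekeeping genes called higher fell to 5 without hepatocyte replicate 4. Gapdh, a glycolytic enzyme often used as a reference, read 6.6 and 6.73 against 4.99 and 5.06, and Tubb5, a tubulin, 3.95 and 3.32 against 5.66 and 6.41. Psmb8 and Psmb9, immunoproteasome subunits, were the proteasome members called lower (-2.59 and -1.91).

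Cytosolic ribosomal proteins gave 9 higher and 14 lower of 31 (29.0% and 45.2%, against 29.7% and 38.7% of all genes; median -0.42). The balance turned with the scaling, to 1 higher and 20 lower under quantile normalization and 13 higher and 9 lower when all probes of a design set its 75th percentile. Rpl13a read 2.19 and 2.14 against 3.87 and 4.6. Of those called higher, Rpl37a (0.87) and Rps20 (1.07) turned to -0.48 and -0.05 under quantile normalization. The array annotation places the Rpl37a probe on chromosome 7 and RefSeq the gene on chromosome 1, and probes of this family can bind processed pseudogene transcripts.

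Of 53 respiratory chain and ATP synthase subunits tested, 46 were called higher in hepatocytes and 2 lower, with a median of 1.39. This count depended on the scaling, and quantile normalization gave 19 higher and 2 lower with a median of 0.5. Cyc1, cytochrome c1 of complex III, read 4.81 and 5.16 against 1.93 and 3.12, a difference of 2.46. The 2 called lower were Cox6a2 and Cox8b, heart and muscle isoforms of cytochrome c oxidase. Cox6a2 read 1.51 and 2.15 in Lin- BM cells against -5.23 and -4.79 (limma adjusted p = 6.6e-06). Cox8b was dim, was at background in hepatocytes, and turned to 0.07 with another background correction.

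Genes of protein export gave 26 higher and 4 lower of 50, with a median of 0.72. These shares, 52.0% and 8.00%, stand against 29.7% and 38.7% of all genes. Quantile normalization gave 21 higher and 9 lower. P4hb, protein disulfide isomerase, read 5.41 and 5.16 against 2.55 and 2.6 (difference 2.71 ± 0.25 SE), and Sar1b, the GTPase of the coat for lipoprotein export, 4.3 and 4.39 against 0.7 and 0.75. The oligosaccharyltransferase subunits Stt3a and Ddost differed by 0.23 and 0.22 and were not called.

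Epithelial junction genes gave 23 higher and 3 lower of 31 (median 2.67). Krt18, the keratin of simple epithelia, read 6.81 and 6.24 against 2.29 and 1.35. Gjb2, connexin 26, differed by 10.77 (limma adjusted p = 3.42e-05), and Cdh1, E-cadherin, by 2.45 (limma adjusted p = 0.0077). Vim, vimentin of mesenchymal and blood cells, read 4.57 and 3.84 in Lin- BM cells and -1.55 and -1.11 in hepatocytes. Ezr, ezrin, was called lower (-4.94).

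Of 17 iron and copper genes, 8 were called higher and 6 lower (47.1% and 35.3%, against 29.7% and 38.7% of all genes), and the median of 1.34 turned to -0.38 over the 11 genes well above background on all 4 arrays. Hamp and its upstream regulators Tmprss6 (11.34) and Hjv (7.43) were higher in hepatocytes. Tfrc, the transferrin receptor, read 0.29 and 1.43 in Lin- BM cells against -1.39 and -1.15 and was called lower (-2.13), as was the importer Slc11a2 (-2.77). Among antigen presentation genes 6 were called higher and 7 lower of 16 (37.5% and 43.8%, against 29.7% and 38.7% of all genes). Under quantile normalization 3 were called higher. Fcgrt, the neonatal Fc receptor that recycles albumin, read 3.28 and 3.55 against -2.35 and -2.38, while H2-Oa of the class II pathway was at least 101-fold lower.

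Early response genes gave 3 higher and 11 lower of 30 (36.7% lower, against 38.7% of all genes, and median -1.29). Fos read 4.14 and 2.21 in Lin- BM cells and -4.7 and -4.16 in hepatocytes, and its call was lost without Lin- replicate 3 (adjusted p = 0.0652). Myc, a growth factor-driven transcription factor, read 3.07 and 3.35 against -1.6 and -1.49 (limma adjusted p = 0.000336). Without hepatocyte replicate 2, and likewise without Lin- replicate 3, 7 of these genes were called lower. The 3 called higher, Gadd45g, Hspa8 and Trib1, all lost the call without hepatocyte replicate 4. Egr1 read -0.85 and -1.16 against 3.45 and 2.54 and was not called (limma adjusted p = 0.0855), while a fit of the 4 arrays alone gave it an adjusted p of 0.00148.

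Clock genes gave 2 higher (Nr1d1 and Bhlhe41) and 0 lower of 9 (22.2% and 0.00%, against 29.7% and 38.7% of all genes). Nr1d1, the repressor REV-ERB alpha, read 0.27 and -1.63 against -3.77 and -4.05, and its call was lost without hepatocyte replicate 2 or without Lin- replicate 4. The times of day at which tissue was taken were not given in the sources used here.

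Of 10 fetal liver and bile duct genes tested, 5 were called lower and 0 higher, where 38.7% of all genes were called lower and 29.7% higher. With another background correction 2 were called lower and 1 higher, so the count called lower depended on the processing. Afp, alpha-fetoprotein, read -0.69 and -0.74 against 0.97 and -0.43 and was not called. The bile duct keratin Krt19 was not well above background on any of the 4 arrays, and neither was Krt7. Sox9 was above background in hepatocyte replicate 2 alone.

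Hepatocyte samples also carried markers of other liver cells. Of 18 Kupffer cell genes tested, 8 were called higher and 1 lower (44.4% and 5.56%, against 29.7% and 38.7% of all genes). The median of 1.29 turned to -0.23 over the 12 well above background on all 4 arrays. Clec4f, a lectin of Kupffer cells, the liver macrophages, read 0.21 and 1.57 in hepatocytes and was at least 140-fold higher (limma adjusted p = 0.000377). C1qa read -1.47 and -0.3, and C1qb -1.66 and -0.49, each higher in replicate 4. Without hepatocyte replicate 4, 3 Kupffer genes were called higher, and 4 without Lin- replicate 3, in which C1qa (-6.99) and Cd5l (-4.66) were far below replicate 4 (-2.76 and -0.36). The summed signal of 7 Kupffer markers was 2.4 and 3.58 in hepatocytes and -1.31 and 1.13 in Lin- BM cells on the log2 scale.

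Sinusoidal endothelial genes gave 14 higher and 1 lower of 16 (median 3.67). Clec4g, a lectin of these cells, read 2.75 and 2.71 against -4.54 and -4.25 (difference 7.13 ± 0.25 SE, limma adjusted p = 1.6e-06). Gpr182, an orphan receptor of sinusoids, was at least 288-fold higher, and Stab1, a scavenger receptor, differed by 6.13. The summed signal of 4 endothelial markers was 3.56 and 3.57 in hepatocytes and -2.53 and -2.04 in Lin- BM cells.

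Stellate cell genes gave 6 higher and 3 lower of 16 (37.5% and 18.8%, against 29.7% and 38.7% of all genes; median 0.43). Lrat, which stores vitamin A as retinyl esters, read -2.23 and -1.83 and was at least 24.6-fold higher in hepatocytes. Dcn, decorin, spanned 1.28 to 3.82 in hepatocytes and -0.63 to 2.49 in Lin- BM cells. Col1a2, type I collagen of fibroblasts and bone-lining cells, was higher in Lin- BM cells, at 1.86 and 5.85 against -4.52 and -1.28. Replicate 4 was the higher sample of each group for Dcn, Lum, Col1a2 and Col3a1. Not all markers followed, and Des, desmin, read -5.17 in hepatocyte replicate 2 and -5.78 in replicate 4. Lrat was at background in both Lin- samples. The part of admixed cells in any difference was not tested.

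**Figure D5:**
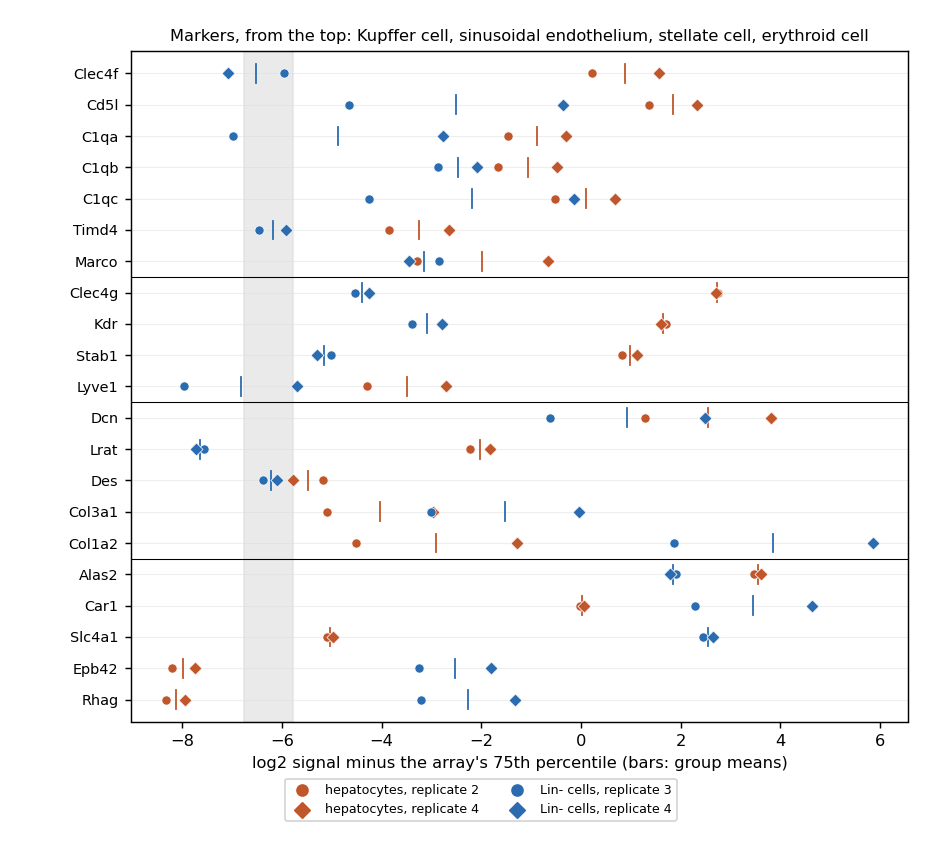
Level on each of the 4 arrays of markers of Kupffer cells, sinusoidal endothelium, stellate cells and erythroid cells, as log2 signal minus the 75th percentile, with short bars for group means and a grey band for the range of the lowest signals above background. The 4 endothelial markers and Clec4f read higher in both hepatocyte samples than in both Lin- samples, Col1a2 is high in both Lin- samples, and Alas2 is the erythroid marker that reads higher in hepatocytes.

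The remaining genes with the largest differences are given by direction. Uox, urate oxidase, which degrades uric acid in rodent liver, read 7.94 and 8.08 and was at least 25905-fold higher. In Lin- BM cells, Mns1 read 2.9 and 4.95 and was at least 957-fold higher there, the largest bound in that direction. Rgcc, a regulator of the cell cycle, read 4.01 and 3.46 and was at least 830-fold lower in hepatocytes. Rhd, the Rhesus antigen, was at least 506-fold lower and Trim12a at least 501-fold lower. The chemokines Ccl3 (at least 400-fold lower) and Ccl4 (difference -9.22 ± 0.6 SE) were also among the largest, at 4.93 and 3.1 for Ccl4 in Lin- BM cells against -5.14 and -5.26. Sphk1, a sphingosine kinase, differed by -8.63, with Lin- samples at 2.13 and 5.46.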

How the data were processed

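Labelled RNA was hybridised to 1-colour Agilent arrays of 2 designs, and the authors extracted the scanned images with Feature Extraction 11.5.1.1, per the file headers, to give background-subtracted intensity values per spot. The deposited log2 tables differ from the log2 of these intensities by 1 constant per array, within 0.02, for 99.8 to 100.0% of probes and were used as an alternative. Here control and outlier spots were left out, spots of one sequence averaged, probes matched between designs by identical sequence, and genes named through accessions in RefSeq (11824 of 13991 sequences), symbols or synonyms (1053) or the array's own name (1114), with the brightest shared probe per gene. Probe builds were mm9 per the file headers. limma 3.58.1 (R 4.3.3) fitted 4 group means over 8 arrays (residual df 4, Benjamini-Hochberg adjustment). Pooled mice and the number of arrays limit precision. The fit was tested on simulated data. A spot flagged as an outlier left 5 genes without 1 of the 4 arrays.

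The methods shifted arrays to the 75th percentile and used a log2 limit of 0.6 with a test between groups, which was run here without and with adjustment as an alternative. Alternatives were background correction, scaling, filters, probe averaging, the 4 arrays alone, and leaving out each array. Slide could not be used as a block, since each group lay on 1 slide. Lists, named genes and tests were chosen with earlier results of these data known, so no list count is independent evidence. Named genes were lead genes of lists, members called against their list, the 10 largest differences or bounds in each direction, and genes the study's text names, with others chosen after their values were seen. Figures used Python 3.11.15 and matplotlib 3.10.9. Tests of lists were not run. List counts are read against 29.7% of all genes called higher, 38.7% called lower and a median of -0.31. Some items are not reported here.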

Additional observations from a re-analysis of the deposited data

How the results depend on the processing

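Under 17 alternatives the count of genes called higher ran from 1290 to 2985 and the count called lower from 1290 to 3748, against 2688 and 3510. The test of the methods with Benjamini-Hochberg adjustment, which pools no spread between genes, called 1290 higher and 1290 lower. Requiring signal well above background on all 4 arrays left 6842 genes, of which 2320 were called lower. Leaving out each array in turn gave 2414 to 2556 genes higher and 3158 to 3238 lower. Of 266 named genes, 152 kept direction and call under every alternative that tested them. Cox8b and Cyp2b13 turned to 0.07 with normexp background correction. Under quantile normalization H2-K1 turned to -0.40, H2-Q2 to -0.06, Rpl37a to -0.48 and Rps20 to -0.05, and Rpsa to -0.19 as the mean of its probes. With the filter on all 4 arrays the median of iron and copper genes turned to -0.38 and that of Kupffer genes to -0.23, and the clock median ran from -0.02 (without hepatocyte replicate 4) to 1.67 (without replicate 2). The cause was not tested. No paired analysis was possible because the groups share fewer than 2 replicate numbers. With both groups on separate slides, no within-slide value exists, and signals near background give bounds only.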
